A study of Mus musculus with 2 samples.

Results

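Transcripts of ATP-dependent chromatin remodelling complexes and histone deacetylases were compared between 2 cultures of i-OSKM-ESC, a mouse embryonic stem cell line engineered from KH2 cells (strain 129). In these cells doxycycline switches on Oct4, Klf4, c-Myc and a Sox2 that carries an epitope tag. One culture received doxycycline at 4 µg/mL and its RNA was taken 24 hours after the addition, and the other received fresh medium without the drug. Both cultures carry the engineered constructs and both grew on gelatin. KH2 cells given the drug were not analysed here, so effects of the drug and of the factors cannot be told apart. With 1 whole-transcript array per condition, no test was possible, and precision is limited by the number of arrays.

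The genes were chosen by name: those with the root Smarca, Smarcb, Smarcc, Smarcd or Smarce and a number, Arid1a, Arid1b, Arid2, Pbrm1, Brd7, Brd9, the Chd genes, Mta1 to Mta3, Mbd1 to Mbd6, Gatad2a, Gatad2b, Rbbp4, Rbbp7, the Hdac genes with a number, Ino80 and Ep400. The mouse gene table holds 52 such genes, and 51 of them have a probeset (the set of probes summarised into 1 value) assigned to that gene alone, among 19938 genes measured in this way. Mbd5 was not analysed here. Of the 51, 43 have 1 probeset and 8 have several, 89 probesets in all, and the value of a gene is the mean of its probesets. Values are on the log2 scale of RMA, so a difference of 1 is a 2-fold change, and a difference is always the value with doxycycline less the value without it. The expression filter asked for at least 1 of a gene's values at or above 6.48, the median of both arrays. That held for 49 of the 51 genes, and the exceptions were Smarca2 and Hdac9. Levels of different genes are not compared, because each probeset has its own response.

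Chromatin remodellers use ATP to slide, eject or exchange nucleosomes, and are grouped by their ATPase into SWI/SNF (BAF and PBAF), ISWI, CHD and INO80 families. NuRD joins a CHD ATPase to the deacetylases Hdac1 and Hdac2 and to an MBD protein, and so couples remodelling with removal of acetyl groups from histones. Embryonic stem cells are known for a particular BAF assembly, esBAF, built on Smarca4 (Brg1) and Smarcc1 (BAF155) with little Smarca2 or Smarcc2, and proteomic studies have found BAF and NuRD subunits among the partners of Oct4 and Sox2.

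The labels were checked against marker genes and the induced factors. All 10 embryonic stem cell markers passed the filter on these arrays. Their differences had a median of -0.46, 8 of 10 were negative, and their mean level was 10.8 with doxycycline against 11.2 without it. Of the fibroblast or feeder markers 5 of 10 passed (mean level 5.95 against 5.84). Their differences had a median of 0.25, and 4 of 10 were negative. Of their matrix genes, Col1a1 (7.61 against 7.16) and Col1a2 (7.16 against 6.66) passed and were each over 1.3-fold higher with doxycycline. Col3a1 (6.49 against 6.56) passed, and Postn (4.80 against 4.55), Dcn (4.81 against 4.54) and Lum (3.63 against 3.38) did not. Of the other markers, Thy1 (7.49 against 7.22) and Pdgfrb (6.38 against 6.63) passed, and S100a4 (5.41 against 5.83) and Twist1 (5.71 against 5.83) did not. Among markers of extraembryonic endoderm 5 of 7 passed (mean level 6.54 against 6.55), of trophectoderm 2 of 6 (5.98 against 6.004), of mesoderm 2 of 4 measured (5.99 against 5.98) and of neural cells 3 of 5 measured. The neural mean of 7.26 against 7.20 joins opposite differences: Neurod1 was 2.12-fold lower (7.20 against 8.28) and Tubb3 2.41-fold higher (8.94 against 7.67). Array values have no true zero, and no marker can be called absent. Pou5f1, which encodes Oct4, differed by 0.41, Klf4 by 0.43 and Myc by 0.35, whereas Sox2 differed by -1.01, against the label, so every direction below rests on the labels of the arrays. The part of these marker differences in the results below was not tested. In a culture, fewer cells of a type and less RNA per cell cannot be told apart.

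Across the 51 genes the differences ran from -1.25 (Smarca1) to 0.35 (Hdac4), with a median of -0.11, beside a median of 0.01 over all 19938 genes and of -0.03 over the 11191 genes that passed the filter. Lower values were in the majority: 37 of the 51 genes (72.5%) had a negative difference, against 48.3% of all genes and 55.5% of those that passed. Genes past the filter with a difference of 1.5-fold or more were called lower or higher. By that rule 2 of the 51, Smarca1 and Smarcc2, were lower and 0 were higher, beside 3.80% of all genes passing the filter called lower and 3.24% called higher. At 2 lower genes of the 49 that passed, 4.08%, the share called lower is near that background. At 2-fold, only Smarca1 was called, beside 1.69% of all genes in either direction, and that call rests on a value below the filter. At 1.3-fold, 6 of the 51 genes were lower and 0 higher, beside 10.3% and 7.97% of all genes passing the filter. After a loess fit of the differences on mean expression was subtracted, the median of the 51 was -0.07 and 35 were negative.

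**Figure D1:**
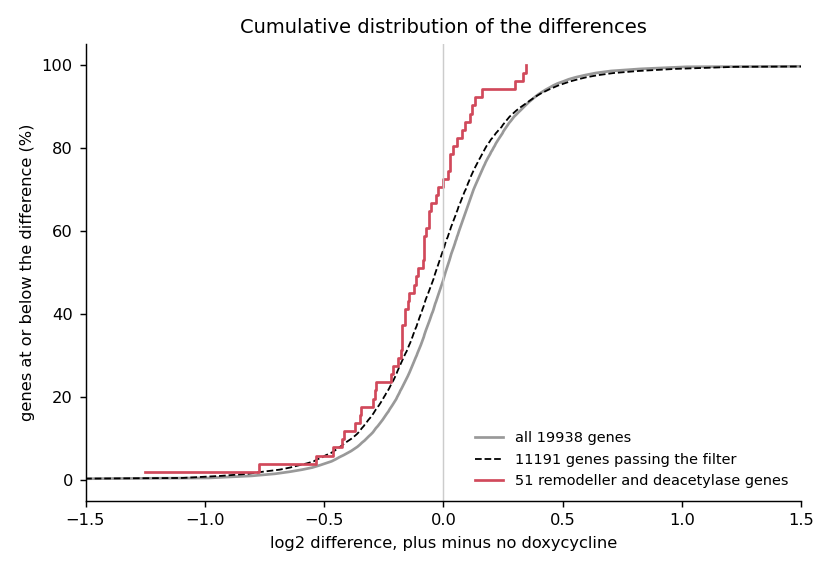
Cumulative share of genes (vertical axis, percent) at or below a log2 difference, plus minus no doxycycline (horizontal axis), for the 51 remodeller and deacetylase genes (red steps), all 19938 genes (grey) and the 11191 genes passing the expression filter (dashed). The red line crosses 0 at 72.5%, above the grey line at 48.3%, and it ends at 0.35, the value of Hdac4.

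The ISWI pair held the largest difference between deposited values, though 1 of those values was below the filter. ISWI ATPases space nucleosomes evenly, and mammals have Smarca1 (Snf2l), known from neurons and other differentiating cells, and Smarca5 (Snf2h), the main ISWI ATPase of embryonic stem cells. Smarca1 had a log2 value of 7.09 without doxycycline and 5.85 with it, a deposited difference of -1.25. It passed the filter only through the array without doxycycline, and its value with the drug lay below 6.48. That cut is the median of all values, and background was not measured, but dim signal may lie close to background. The size of the Smarca1 difference is therefore uncertain. With the lower value set to the filter, an alternative chosen after seeing the data, the difference was -0.61 or 1.53-fold, smaller than that of Smarcc2. Adding 32 to the linear values, which shrinks the differences of dim probesets, put it at -0.91. Under both settings it was past 1.5-fold and under 2-fold. Smarca5 had 10.90 without and 11.07 with doxycycline, a difference of 0.16 in the opposite direction. The gap between the 2 paralogs was -1.41 on the log2 scale as deposited and -0.77 with Smarca1 set to the filter. Besides its own probeset, Smarca5 shares 3 probesets with a pseudogene and a predicted gene. These were left out of its value, and their differences, 0.22 to 0.34, were positive as well.

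A similar contrast within a pair was seen in the scaffold subunits of BAF. Smarcc1 (BAF155) and Smarcc2 (BAF170) encode paralogous subunits that hold the complex together, and a high share of Smarcc2 is known from differentiated and neural BAF. Smarcc2 had 8.21 without doxycycline and 7.43 with it, a difference of -0.77 or 1.71-fold. Smarcc1 had 10.58 and 10.63, a difference of 0.05. Smarcc2 was thus lower by more than the 1.5-fold rule while its paralog was almost level, and the gap between them was -0.83. Smarcc2 and Smarcc1 were measured by 1 probeset each, as was Smarca1. Both values of Smarcc2 lay above the filter at 6.48 and below the 75th percentile of all values, 8.25, so a filter set there would leave it out.

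The start regions of these 2 pairs were set side by side. The stretches below are the 250 bases upstream of the annotated start, 5′ to 3′ on the gene's strand, from RefSeq on GRCm38.p6, with CG dinucleotides (CpG, the main site of DNA methylation in mammals) in capitals. They are shown because each pair joins a gene called lower with a paralog that was not. They lie at chrX:47892614-47892863 (minus strand) for Smarca1, chr8:80739460-80739709 (minus) for Smarca5, chr10:128458986-128459235 (plus) for Smarcc2 and chr9:110131774-110132023 (plus) for Smarcc1.
Smarca1: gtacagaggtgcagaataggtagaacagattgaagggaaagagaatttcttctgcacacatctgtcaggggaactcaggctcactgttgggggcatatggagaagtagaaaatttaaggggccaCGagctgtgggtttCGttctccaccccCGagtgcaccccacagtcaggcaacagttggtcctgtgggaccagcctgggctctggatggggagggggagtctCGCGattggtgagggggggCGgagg
Smarca5: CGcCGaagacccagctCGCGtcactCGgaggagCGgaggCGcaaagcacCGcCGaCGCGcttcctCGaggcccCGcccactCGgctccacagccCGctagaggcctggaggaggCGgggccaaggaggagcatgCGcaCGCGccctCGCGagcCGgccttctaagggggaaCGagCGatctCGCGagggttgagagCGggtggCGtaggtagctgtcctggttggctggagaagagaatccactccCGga
Smarcc2: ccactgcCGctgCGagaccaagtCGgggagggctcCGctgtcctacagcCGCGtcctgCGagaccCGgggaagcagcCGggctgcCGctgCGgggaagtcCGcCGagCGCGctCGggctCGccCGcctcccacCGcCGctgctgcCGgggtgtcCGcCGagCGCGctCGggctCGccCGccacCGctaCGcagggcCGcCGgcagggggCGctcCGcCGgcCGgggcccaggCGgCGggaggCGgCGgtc
Smarcc1: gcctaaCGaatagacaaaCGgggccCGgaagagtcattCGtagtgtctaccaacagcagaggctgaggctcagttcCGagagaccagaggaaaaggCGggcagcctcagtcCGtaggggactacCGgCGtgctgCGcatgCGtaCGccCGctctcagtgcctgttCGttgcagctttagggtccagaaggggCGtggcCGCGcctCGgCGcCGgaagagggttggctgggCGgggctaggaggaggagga

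The upstream stretch of Smarca1 holds 6 CpGs, against 29 for Smarca5, 40 for Smarcc2 and 21 for Smarcc1, so the genes called lower lie at opposite ends of this range. RefSeq stretches were matched for 39 of the 51 genes, 51 stretches in all because some genes have several starts. Their median was 21 CpGs, beside 16 over 11391 stretches of the other genes that passed the filter and 6 over all 32851 stretches in the table. Of the 51, 15.7% held at most 6 CpGs, beside 17.6% among the other genes that passed. The letters of 4 motifs were searched on both strands, with no overlap between the motifs. They were the E-box CACGTG bound by Myc, the octamer ATGCAAAT bound by Oct4, CATTGT, a form of the site bound by Sox proteins, and GGGTGTGG, a form of the site bound by Klf proteins. The E-box was in 2 of the 51 stretches (Pbrm1 and Rbbp4), 3.92% beside 6.02% of all stretches. The octamer was in 3 (Chd6, Hdac9 and Mta2), 5.88% beside 1.60%. The Sox letters were in 4 (from Chd6, Hdac7 and 2 starts of Hdac9), 7.84% beside 10.7%, and the Klf letters in 0, beside 3.20%. None of the 4 motifs is in the stretches of Smarca1, Smarca5, Smarcc2 or Smarcc1. The motif shares were set against all stretches, with a median of 6 CpGs against 21 here, and not against the other genes that passed. The sets thus differ in base composition, and nothing is concluded from the motif shares. Hdac9, with matches to 2 of the motifs, lay below the expression filter. A match is a run of letters and not a site shown to be bound.

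**Figure D2:**
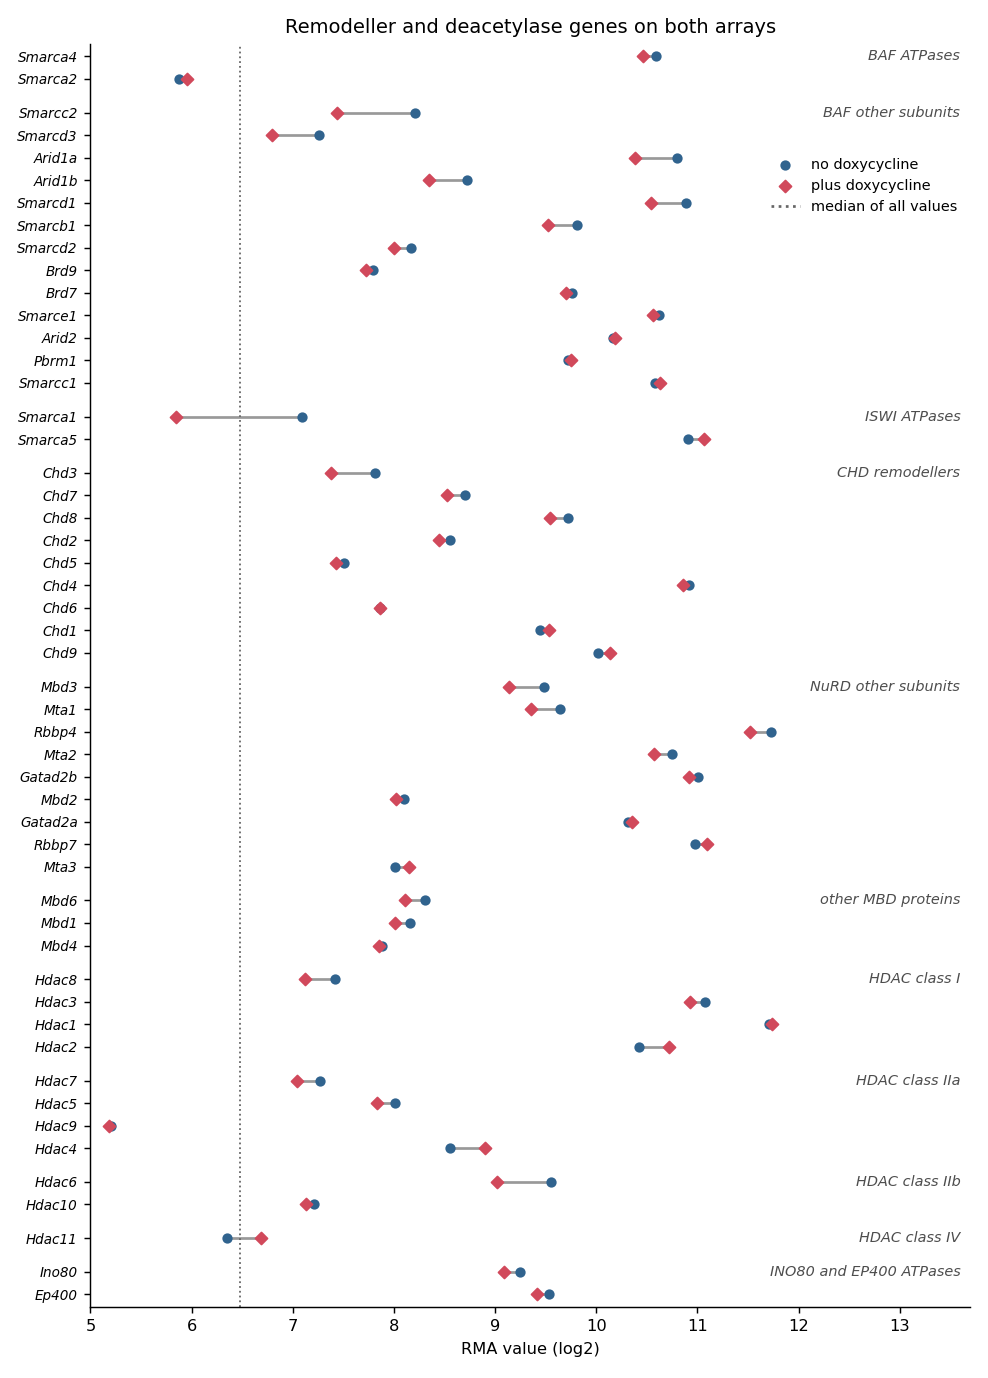
RMA values (log2, horizontal axis) of the 51 genes on the array without doxycycline (blue circles) and with it (red diamonds), 1 array each, grouped by role and ordered by difference within a role; the dotted line is the median of all values, 6.48. Smarca1 crosses that line, from 7.09 to 5.85, and most red diamonds lie to the left of their blue circles; levels of different genes are not comparable.

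The ATPases of BAF differed less. Smarca4, whose product Brg1 drives esBAF, had 10.59 without and 10.47 with doxycycline, a difference of -0.12. Smarca2 (Brm), its alternative, had 5.87 and 5.95, below the filter on both arrays, so its difference of 0.08 is one between dim values.

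Among the 13 other BAF and PBAF subunits, 10 differences were negative, the median was -0.16 and Smarcc2 was the 1 gene called. After Smarcc2, the subunits that differed most were Smarcd3, Arid1a, Arid1b, Smarcd1 and Smarcb1, in that order. Smarcd3 (BAF60C), a subunit known from heart and neural BAF, had 7.25 without and 6.79 with doxycycline, a difference of -0.46. Smarcd1 (BAF60A), the form common in embryonic stem cells, had 10.89 and 10.54, a difference of -0.35. The third form, Smarcd2, had 8.17 and 8.003, a difference of -0.16. The 3 alternative Smarcd subunits were all lower, each under 1.5-fold. Arid1a, the DNA-binding subunit of canonical BAF in embryonic stem cells, had 10.80 and 10.38, a difference of -0.42. Its alternative Arid1b had 8.72 and 8.35, a difference of -0.37. The Arid1 genes thus differed alike, by 1.34-fold and 1.29-fold. The core subunit gene Smarcb1 had 9.81 and 9.53, a difference of -0.28.

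Among the 51 genes, the subunits that define PBAF stayed close to level. PBAF is a form of the complex with Arid2 in place of the Arid1 proteins and with the polybromo protein Pbrm1. Arid2 had 10.17 without and 10.19 with doxycycline, a difference of 0.02. Pbrm1, measured by 3 probesets, had 9.73 and 9.75, and its probesets differed by -0.0042, 0.02 and 0.07. Brd7, a bromodomain subunit of PBAF, differed by -0.06. Brd9, which marks the noncanonical form of BAF, differed by -0.07, and Smarce1, present in the canonical forms, by -0.05 with 3 of 3 probesets negative. These 5 genes, of which Brd9 and Smarce1 do not define PBAF, lay within 0.08 of 0. The Arid1 genes of canonical BAF were lower by 0.37 and 0.42 on the log2 scale, a contrast drawn after the values were seen. Other subunits did not follow 1 pattern: Smarcc1 (0.05) and Smarca4 (-0.12) lay closer to 0, and Smarcd1 (-0.35) and Smarcb1 (-0.28) were lower. Phf10, from the partner list of BAF and PBAF subunits and not among the 51 genes, differed by 0.13, outside that range of 0.08.

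**Figure D3:**
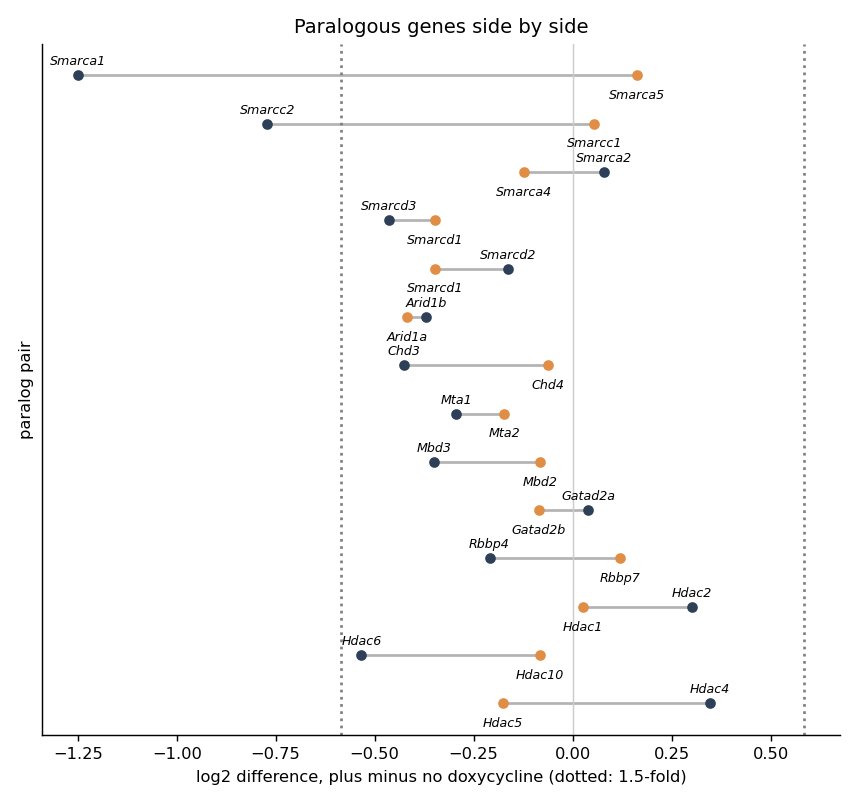
Log2 difference, plus minus no doxycycline (horizontal axis), of the genes of 14 paralog pairs from 1 array per condition; each line joins a pair, and the dotted lines mark 1.5-fold in either direction. The longest lines are those of Smarca1 with Smarca5 (a gap of -1.41, or -0.77 with the value of Smarca1 below the filter set to it) and of Smarcc2 with Smarcc1 (-0.83).

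The CHD family, chromodomain ATPases, had a median difference of -0.08 over 9 genes, 7 of them negative and 0 called. Chd3, a NuRD ATPase, had 7.81 without and 7.38 with doxycycline, a difference of -0.43 or 1.34-fold. Chd4, the NuRD ATPase most studied in embryonic stem cells, had 10.91 and 10.85, a difference of -0.06. Chd5, the third NuRD ATPase and known from neurons and testis, had 7.51 and 7.42, a difference of -0.08. Chd3 was thus the NuRD ATPase gene that differed most. Chd8, a remodeller linked to Wnt signalling, had 9.72 and 9.54, a difference of -0.17. Chd1, needed for the open chromatin of embryonic stem cells, had 9.45 and 9.54, a difference of 0.09. Chd9 had 10.02 and 10.13, a difference of 0.11, and these were the CHD genes with positive values. Chd2 (-0.11) and Chd6 (-0.0033) complete the family with Chd7. The brighter probeset of Chd6 differed by -0.10 and the dimmer one by 0.10, so its direction depends on the probeset.

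Chd7, which binds enhancers in embryonic stem cells, is the gene of the set with the most probesets. Its mean was 8.71 without doxycycline and 8.53 with it, a difference of -0.18 or 1.13-fold. Of its 30 probesets 29 were negative, with a range from -0.45 to 0.03, a median of -0.16 and an SD of 0.11 between probesets. The probesets read 1 RNA sample per array, so their number adds nothing on the spread between cultures. For scale, the SD between a gene's probesets was 0.167 over the 492 genes in which 2 passed.

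**Figure D4:**
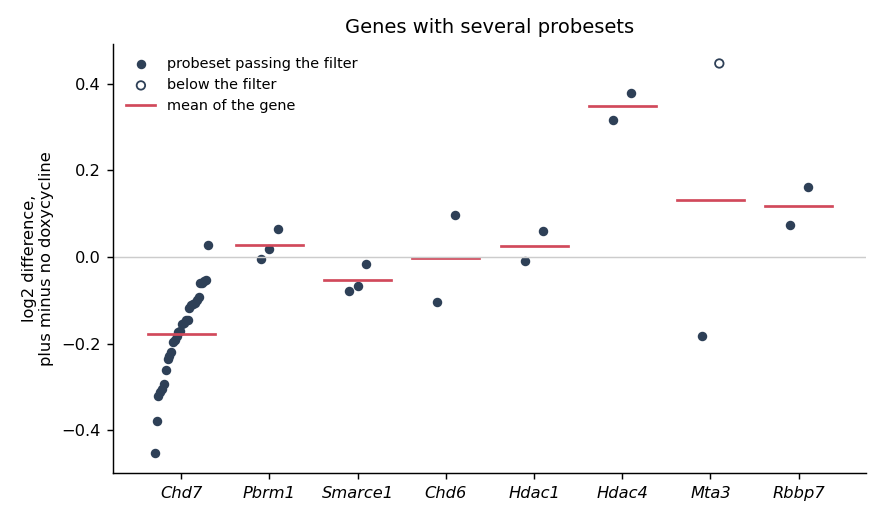
Log2 difference, plus minus no doxycycline (vertical axis), of every probeset of the 8 genes with several; filled points passed the expression filter, open points did not, and the red bar is the gene's mean. Of the Chd7 probesets 29 of 30 lie below 0, while the 2 of Mta3 lie on opposite sides of 0.

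The non-ATPase subunits of NuRD had a median of -0.09 over 9 genes, 6 of them negative and 0 called. Mbd3, the methyl-CpG-binding-domain protein that embryonic stem cells need for NuRD assembly, had 9.49 without and 9.13 with doxycycline, a difference of -0.35. Its alternative Mbd2, which binds methylated DNA, had 8.10 and 8.02, a difference of -0.08. As deposited, Mbd3 was lower by 1.28-fold and Mbd2 by 1.06-fold. After loess centring the differences were -0.30 for Mbd3 and -0.00076 for Mbd2. Of the Mta subunits, which recruit the deacetylases, Mta1 had 9.64 and 9.35, a difference of -0.29. Mta2 had 10.75 and 10.58, a difference of -0.17. Mta3 had 8.01 and 8.14 as a mean, a difference of 0.13, but its brighter probeset differed by -0.18 and its dimmer one, below the filter, by 0.45. The direction of Mta3 therefore depends on the probeset, and by the brighter one all 3 Mta genes were negative.

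The histone-binding subunits of NuRD differed in opposite directions, by small amounts. For scale, the 25th and 75th percentiles of the differences over all genes passing the filter were -0.20 and 0.13. Rbbp4 had 11.73 without and 11.52 with doxycycline, a difference of -0.21. Rbbp7 had 10.98 and 11.10, a difference of 0.12, with both of its probesets positive. These proteins also belong to SIN3 and polycomb complexes. The Gatad2 subunits, which link the remodelling and deacetylase modules of NuRD, stayed near level, with 0.04 for Gatad2a and -0.09 for Gatad2b. The MBD proteins outside NuRD had negative deposited differences. They were -0.19 for Mbd6, -0.15 for Mbd1, which binds methylated DNA, and -0.03 for the DNA glycosylase gene Mbd4. Mbd4 was positive under quantile normalization (0.03) and after loess centring (0.05).

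The 11 deacetylase genes included the genes with the most positive differences of the set, and 0 were called. In class I, the nuclear enzymes, Hdac2 had 10.42 without and 10.72 with doxycycline, a difference of 0.30 or 1.23-fold. Hdac1, its partner in NuRD, SIN3 and CoREST, had 11.71 and 11.73, a difference of 0.03, with probesets at -0.0085 and 0.06. Hdac3, the enzyme of the NCoR complex, had 11.07 and 10.93, a difference of -0.15. Hdac8, which deacetylates cohesin, had 7.41 and 7.13, a difference of -0.29. Class I was thus split, with a median of -0.06 and a gap of 0.27 between Hdac2 and Hdac1.

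Class IIa deacetylases shuttle between nucleus and cytoplasm and act with Mef2 factors. Hdac4 had 8.55 without and 8.90 with doxycycline, a difference of 0.35, the highest of the 51 genes, and its 2 probesets differed by 0.32 and 0.38. Hdac5 had 8.01 and 7.83, a difference of -0.18. Hdac7 had 7.27 and 7.05, a difference of -0.22. Hdac4 stood on the other side of 0 from both, and Hdac9 lay below the filter with 5.20 and 5.18. In class IIb, Hdac6, a cytoplasmic deacetylase of tubulin, had 9.55 and 9.02, a difference of -0.53 or 1.45-fold, just under the 1.5-fold rule. Its relative Hdac10 had 7.21 and 7.13, a difference of -0.08. Hdac11, the class IV enzyme, had 6.35 and 6.68, a difference of 0.33, and it passed the filter only through the array with doxycycline. At 1.3-fold Hdac6 was the 1 deacetylase gene called, 10% of the 10 that passed. That is near the 10.3% of all genes passing the filter that were called lower.

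The remaining large ATPases were close to each other. Ino80, which slides nucleosomes and removes the histone variant H2A.Z, had 9.25 without and 9.09 with doxycycline, a difference of -0.16. Ep400, which installs that variant in the TIP60 complex, had 9.53 and 9.42, a difference of -0.12. Another 12 probesets list Ino80 with the ribosomal protein gene Rpl35a and were left out.

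Lists not used by the naming rule held partner genes of the same complexes, and also sirtuin deacetylases, histone acetyltransferases and other Snf2-type ATPases. Of these partner and related genes, 120 of 125 were measured and 118 passed the filter. Their median difference was -0.10 and 92 of the 120 were negative (76.7%), against 48.3% of all genes and 55.5% of those that passed. At 1.5-fold 5 were lower and 0 higher, a share of 4.24% lower beside 3.80% over all genes passing the filter. In the list of SIN3, CoREST and NCoR deacetylase complexes 2 of 24 were called lower, 8.33% beside 3.80%, a share that rests on 2 genes. Rcor2, the CoREST scaffold of embryonic stem cells that ties Hdac1 and Hdac2 to the demethylase Kdm1a, had 9.38 without and 8.32 with doxycycline, a difference of -1.06. Phf21a, a histone-reading subunit of the same complex, had 8.90 and 8.01, a difference of -0.90. Kdm1a differed by -0.10, Rcor1 by -0.07 and Rcor3 by -0.32, so the members of CoREST were not level with each other. Of the 24 genes in that list 23 were negative (95.8%), against 55.5% of all genes that passed, with a median of -0.11 beside -0.03.

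The other calls were 1 gene each in 3 lists, to be read beside the 3.80% of all genes passing the filter called lower. Among further BAF subunits 1 of 14 genes passing was called: Bicral, of noncanonical BAF, had 8.88 without and 8.20 with doxycycline, a difference of -0.68. Among ISWI partners 1 of 10 was called: Baz2b had 8.36 and 7.72, a difference of -0.63, a call lost under quantile normalization, loess centring and the offset. The ISWI partner Baz1a, of the ACF complex with Smarca5, lay on the other side at 0.49, the highest difference among the partner and related genes. Among acetyltransferases, which oppose the deacetylases, 1 of 10 was called: Kat2b had 7.67 and 6.91, a difference of -0.76. In the lists of INO80, SRCAP and TIP60 subunits (29 genes, median -0.08), NuRD partners (9, median -0.29), sirtuins, the NAD-dependent deacetylases (7, median 0.03), and other Snf2-type ATPases (15, median -0.06), 0 genes were called. Sall4, a pluripotency factor that recruits NuRD, differed by -0.31.

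**Figure D5:**
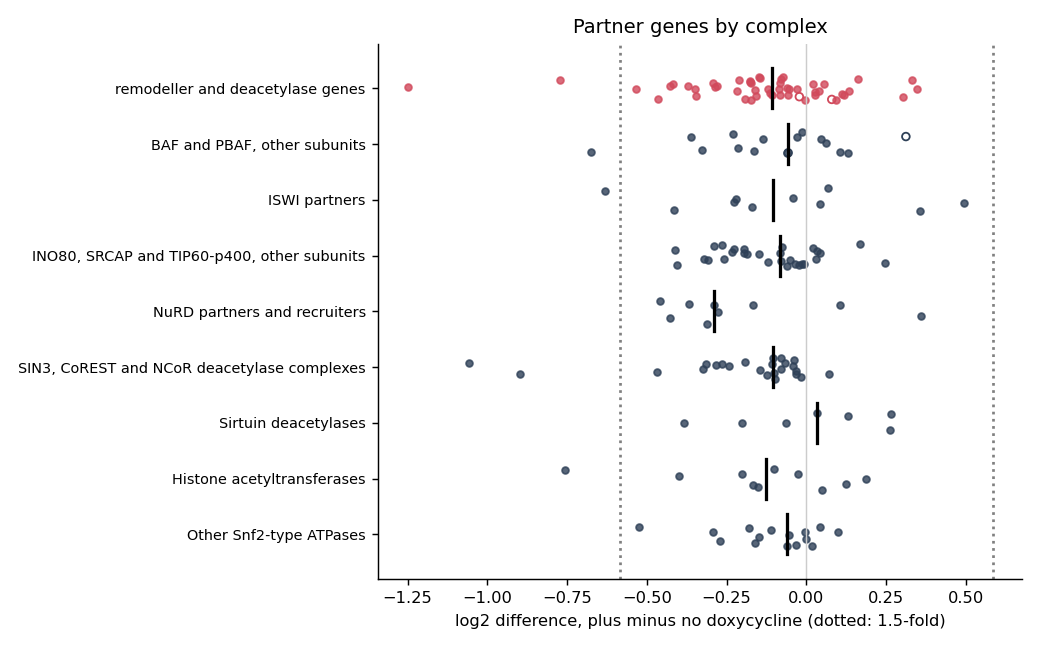
Log2 difference, plus minus no doxycycline (horizontal axis), of the 51 remodeller and deacetylase genes (red) and of 8 lists of partner and related genes (dark). Each gene is 1 point, open where it lay below the expression filter, with a black bar at each median. Dotted lines mark 1.5-fold. Points beyond the left line are Smarca1 and Smarcc2 in the first row and Bicral, Baz2b, Rcor2, Phf21a and Kat2b in the others, and no point lies beyond the right line.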

How the data were processed

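RNA of 2 cultures was hybridised to 1 array each. The deposited table gives 1 log2 value per probeset and array, 35556 probesets, made by the authors with Affymetrix Expression Console and RMA per the submitters' processing notes; no source used here gives their versions or a genome build. RMA equalises the arrays, so a shift shared by most genes would not show. Values were used as deposited. Genes were named from the platform annotation, using the 21789 probesets with 1 gene, and all 51 symbols matched RefSeq by identifier (GRCm38.p6). Calls needed the filter and a 1.5-fold difference. Named were genes called, up to 4 per role group by absolute difference, their paralogs, and the genes called in each partner or related list. Others, among them Baz1a, Sall4, Kdm1a, Rcor1 and Rcor3, were named after their values were seen. The genes and lists were chosen with earlier results of these data known. Alternatives were other filters and thresholds, quantile normalization, a loess trend (span 0.3), an offset of 32, other probeset rules and, added after seeing the data, values below the filter set to it. The steps were tested on simulated data. Tools were statsmodels 0.14.6, pandas 2.3.3, matplotlib 3.10.9, NumPy 2.4.6 and Python 3.11.15.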

Additional observations from a re-analysis of the deposited data

How the results depend on the processing

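No paired analysis was possible because each condition has 1 array. The median difference of the 51 genes stayed negative under every alternative run, from -0.07 after loess centring to -0.12 with the brightest probeset, with probesets counted one by one and over the genes that passed the filter. The count of genes called lower at 1.5-fold was 2 (Smarca1 and Smarcc2) under each alternative except a filter at the 75th percentile, which tests fewer genes and left 0, and a 1.3-fold threshold, which gave 6. The count called higher was 0 throughout. The 1 call at 2-fold, Smarca1, became 0 with that stricter filter, 0 with the offset of 32 (-0.91), and 0 with values below the filter set to it (-0.61), an alternative chosen after seeing the data. The ISWI median of -0.54 was -0.23 under the last of these and 0.16 without Smarca1, and that of class IIb deacetylases, -0.31, was -0.082 without Hdac6; both groups hold 2 genes. A value was taken to have moved when it changed by 0.167 or more, the SD between 2 probesets of 1 gene, since no replicate spread exists. By that measure quantile normalization and loess centring moved 0 of the 51 differences. The measure does not follow sign, and a difference under 0.167 can cross 0 without counting as moved. Both settings made Mbd4 (-0.03 as deposited) and Chd6 (-0.0033) positive. Loess centring also made Brd9 (-0.07) positive and Smarca2 (0.08) negative. Values below the filter, on 1 or both arrays, limit Smarca1, Smarca2, Hdac9 and Hdac11.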
